A study of Mus musculus with 10 samples.

Results

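The RNA described here came from CD4+ splenocytes of 5 mice that had sham surgery, and the question was what these cells expressed at baseline and how far 5 mice differed. The 5 sham arrays were taken by their labels out of 10 arrays in the series; the other arrays served only to set the common scale. The mice were C57Bl/6, aged 8 to 12 weeks. Under halothane the abdomen was opened and the cecum was brought out, handled and put back, so every mouse had anaesthesia, a laparotomy and handling of the gut. Spleens were taken 6 h later and dispersed over nylon mesh, and CD4+ cells were enriched by magnetic removal of other cells to about 91% per the labels. Per the labels each sample came from an individual mouse, so n = 5 is read as 5 mice, although the titles number every sham array as biological replicate 1 and tell them apart by a suffix. Because total RNA was under a microgram, the labelled cRNA was made with a double amplification. Mice without surgery were not analysed here, so the levels are those of a 6 h sham state and not of untouched cells. The sex of the mice is not given in the sources used here.

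CD4+ T cells recognise peptides on MHC class II through the T cell receptor and the CD3 chains, with CD4 as co-receptor. In a resting spleen most are naive or central memory cells, which recirculate through lymphoid tissue and live on interleukin 7. Smaller fractions are regulatory cells, marked by the transcription factor Foxp3, and effector cells of the T helper 1, T helper 2, T helper 17 and follicular kinds, each defined by its own transcription factor and cytokines.

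All values are log2 of the scaled probe set intensity, and a difference of 1 is a 2-fold difference. Intensities below the 25th percentile of all values were set to that floor, at 6.14 on the log2 scale, where values have no order. Genes with a mean of at least 6.70, the 40th percentile of probe sets, were kept for statements on spread. A gene is given by its brightest probe set that names it alone. Probe sets differ in how well they bind their target, so ranks order signal and no fold is formed between genes. Of 45037 probe sets ranked, 27022 reached 6.70 and 8881 (19.7%) lay at the floor on all 5 arrays. Of 18193 genes, 13052 reached 6.70 and 2187 lay at the floor on all arrays. The median gene had a level of 7.60, and the 90th and 99th percentiles were 10.47 and 12.34.

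The labelled cell type was borne out by its markers. The receptor chains Cd3d and Cd3e and the co-receptor Cd4 all ranked above the 90th percentile of genes. Cd3d read 11.85, 11.97, 11.98, 12.06 and 12.07 on sham arrays 1 to 5, a mean of 11.99 ± 0.09 (SD, n = 5). Cd3e read 11.40, 11.45, 11.34, 11.58 and 11.62 (11.48 ± 0.12). Cd4 read 10.86, 10.48, 10.97, 10.66 and 11.23 (10.84 ± 0.29). Cd3d and Cd3e were nearly level across the mice, while Cd4 was lowest on arrays 2 and 4, as was another CD3 chain, Cd3g, given below.

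The arrays were not equal in their control signals. The 18S ribosomal RNA control read intensities of 194 and 234 on arrays 2 and 4, against 3223, 3789 and 5178 on arrays 1, 3 and 5. The ratio of 3 prime to 5 prime Gapdh control signal, a measure of how short the copied RNA is, was 11.2 and 11.8 on arrays 2 and 4 and 25.1, 22.6 and 29.5 on arrays 1, 3 and 5. The same ratio for beta-actin overlapped, at 8.55 and 7.95 against 9.73, 6.25 and 11.7. The 2 arrays are called low 18S and the 3 arrays high 18S below, a technical split at an intensity of 1000 that was set with the values in view. The split also followed the levels of all genes: arrays 2 and 4 were the most alike pair, with a median absolute difference of 0.107 per gene (r = 0.993 across genes, which are not independent), and arrays 2 and 5 the least alike, with 0.278 (r = 0.948). Among the 13052 genes, 23.8% had both low 18S arrays below all high 18S arrays and 21.6% had both above, so that 45.4% did not overlap in either direction. The part of the 18S signal and of 3 prime bias in any gene's spread was not tested.

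**Figure D1:**
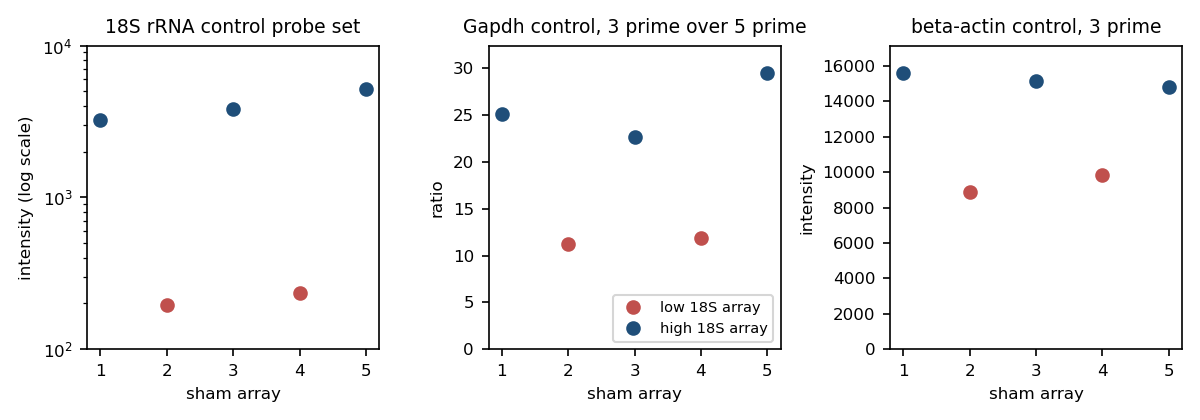
Control signals of the 5 sham arrays: 18S rRNA intensity (log axis), the Gapdh 3 prime over 5 prime ratio, and beta-actin 3 prime intensity, one point per array and mouse. Arrays 2 and 4 (red, low 18S) sit apart from arrays 1, 3 and 5 (blue, high 18S) in all 3 measures; their 18S intensities were 194 and 234.

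The brightest transcripts were those of protein synthesis. Among the 100 brightest genes 30 encoded cytosolic ribosomal proteins, of 49 such genes measured, and their median level was 13.05. A further 7 were translation factors, 8 belonged to the actin cytoskeleton, 4 to mitochondrial energy production, 2 were MHC class I genes or beta-2 microglobulin, and 46 fell in none of the classes. Tpt1, a growth-related protein whose message is under translational control, had a level of 13.93 ± 0.06. The small-subunit proteins Rps28, Rps3, Rps7, Rpsa and Rps29 followed at 13.89 to 13.75, and Eef1a1, which brings aminoacyl-tRNA to the ribosome, at 13.74 ± 0.09. Rpl13a, Rps4x, Rps18 and Rpl10a came next. Their measured spread was small: the median SD of the 100 brightest was 0.105 and their highest was 0.346, against a median of 0.179 over all genes kept. The highest intensity on an array lay between 19250 and 20290, and the brightest genes came close to it; whether such signals were compressed was not tested.

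Many ribosomal protein genes start transcription inside a run of C and T letters, known as the 5 prime terminal oligopyrimidine tract, which couples their translation to growth signals. RefSeq start-site sequences of assembly GRCm38.p6 were at hand for 39 of the 44 ribosomal protein genes kept, with 46 promoters. A run of at least 8 C or T letters touching the 4 bases on either side of the start, read on the sense strand, was present in 34.8% of them, against 8.45% of all 32851 promoters in the table and 9.52% of those of the 200 brightest genes with the ribosomal protein genes left out. The stretches below show such a run, in capitals, in 5 of the brightest genes, from 75 bases before the start to 25 after it. They were chosen because they carry the run, and they lie at chr9:78481700-78481799 on the minus strand (Eef1a1), chr7:45128721-45128820 minus (Rpl13a), chr17:33955641-33955740 minus (Rps18), chr2:26910732-26910831 plus (Rpl7a) and chr7:141447576-141447675 plus (Rplp2).
Eef1a1: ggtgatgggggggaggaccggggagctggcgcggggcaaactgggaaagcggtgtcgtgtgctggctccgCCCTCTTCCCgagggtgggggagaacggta
Rpl13a: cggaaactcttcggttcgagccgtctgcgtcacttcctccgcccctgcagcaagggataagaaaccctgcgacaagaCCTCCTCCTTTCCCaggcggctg
Rps18: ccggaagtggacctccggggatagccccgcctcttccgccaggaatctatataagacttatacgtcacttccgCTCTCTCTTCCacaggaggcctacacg
Rpl7a: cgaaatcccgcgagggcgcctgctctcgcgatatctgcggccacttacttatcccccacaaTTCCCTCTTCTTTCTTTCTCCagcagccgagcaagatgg
Rplp2: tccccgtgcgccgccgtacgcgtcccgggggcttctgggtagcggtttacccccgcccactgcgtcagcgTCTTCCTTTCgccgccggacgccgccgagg
Rpl13a had a level of 13.73 ± 0.07, Rps18 13.63 ± 0.08, Rpl7a 13.28 ± 0.09 and Rplp2 13.27 ± 0.16. The ribosomal protein genes were also short: their median span in the genome was 3610 bases, against 10496 bases for the 200 brightest genes and 21976 bases for all genes kept.

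Outside translation, the 30 brightest genes held parts of the cytoskeleton and of RNA handling. Actb, cytoplasmic actin, read 13.63, 13.15, 13.74, 13.29 and 13.69 on arrays 1 to 5, so its lower values fell on the low 18S arrays. Cfl1, the actin-severing protein cofilin, was at 13.35 ± 0.15. Pabpc1, Pabpn1 and Serbp1, which bind poly(A) tails or messenger RNA, were at 13.34, 13.40 and 13.28. Nfkbia, the inhibitor that holds NF-kappaB in the cytoplasm and is itself induced by it, was at 13.47 ± 0.06 and ranked 16. Shisa5, Bbip1, Limd2 and Kbtbd11 completed the group. Ptprc, the pan-leukocyte phosphatase CD45, ranked 36 at 13.22 ± 0.05.

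The single brightest named gene was not a T cell gene. Ighm, the heavy chain of IgM made by B lineage cells, read 14.20, 14.31, 14.30, 14.31 and 14.22 (14.27 ± 0.06). The value rests on a probe set whose suffix marks it as shared by several transcripts. Of the 11 probe sets for Ighm, the second brightest was at 13.29 ± 0.22, and another, at 10.56 ± 0.98, read 9.21, 11.69, 10.78, 11.15 and 9.95. Probe sets for one symbol thus differed in both level and spread. Among the 100 brightest probe sets 92 carried a suffix for shared or similar sequence, against 19.9% of all, and only 40 named a single gene.

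By their brightest probe set, the steadiest of the 500 brightest genes were Atrx, a chromatin remodeller, with an SD of 0.023 around 11.82, Rpl4 at 13.07, the lysosomal protease Ctss at 12.53, the mitochondrial import receptor Tomm20 at 12.43 and Ms4a6b, a membrane protein of T cells, at 12.61. Ppp1cc, Rps26, Ets1, Hnrnpa2b1 and Peli1 completed the 10. Ets1 is a transcription factor of resting T cells, and Peli1 a ubiquitin ligase that restrains T cell activation. This holds for the brightest probe set only: another Atrx set read 9.62, 7.24, 9.57, 7.37 and 9.44 (SD 1.23), and another Peli1 set 8.87, 6.96, 9.09, 6.63 and 8.86 (SD 1.18), both among the 100 probe sets of highest SD.

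**Figure D2:**
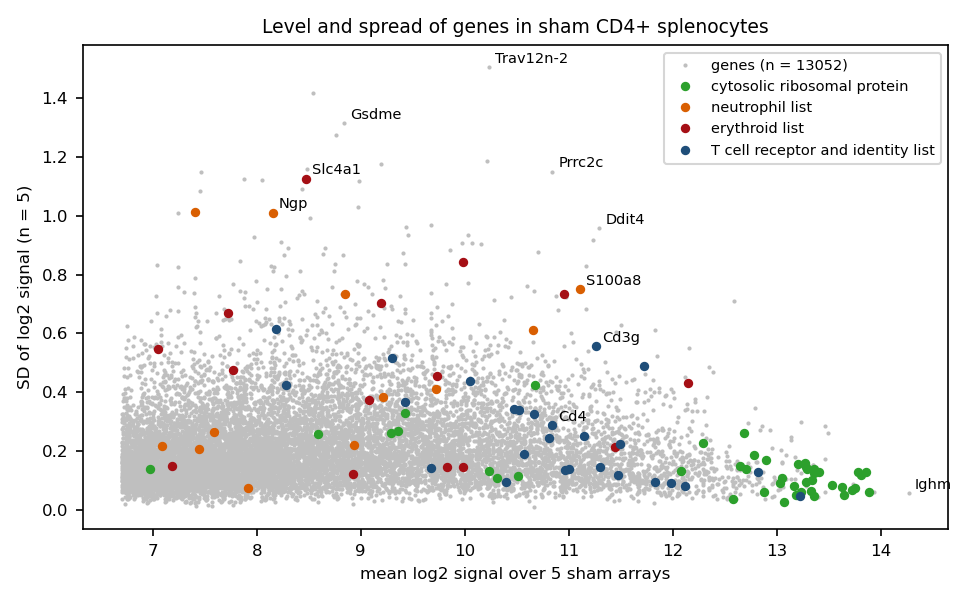
Mean against SD of log2 signal over the 5 sham arrays for 13052 genes, with ribosomal protein genes and the neutrophil, erythroid and T cell lists coloured. Ribosomal protein genes lie mostly at high level and low SD; Trav12n-2 has the highest SD, 1.51, and Ighm the highest level, 14.27.

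The T cell genes formed a bright block. Of 28 genes of receptor and identity 26 were measured, and all reached 6.70, beside 13052 of all 18193 genes. Of these, 24 lay above the 75th percentile of genes, and their median level was 10.90. Bcl11b, the transcription factor that fixes T cell identity, was at 12.82 ± 0.13, and Lat, the scaffold below the receptor, at 12.11 ± 0.08. Cd3g read 11.59, 10.50, 11.81, 10.85 and 11.54, and Thy1, a surface glycoprotein of T cells, 11.86, 11.12, 12.10, 11.32 and 12.23. Both were low on arrays 2 and 4 without overlap. In the list, 14 of 26 genes had both low 18S arrays below the others and 2 had both above, against 23.8% and 21.6% of all genes. Cd27, a costimulatory receptor, had the highest SD of the list (0.61), with 9.14 on array 5 and at most 8.27 elsewhere. In bulk RNA, fewer cells of a type and less RNA per cell cannot be told apart.

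Genes of naive and central cells were the brightest of the T cell subset lists, with a median of 11.61, and all 17 measured lay above the 75th percentile. Il7r, the interleukin 7 receptor, was at 12.96 ± 0.09, and Actn1, Igfbp4 and the chromatin organiser Satb1 were at 12.96, 12.72 and 12.73. Lef1 and Klf2, transcription factors of quiescent recirculating cells, were at 11.47 ± 0.31 and 11.85 ± 0.24, and the homing receptor Ccr7 at 9.19 ± 0.27. Il6ra, the interleukin 6 receptor, varied most: 9.45, 8.28, 9.60, 8.58 and 10.37. Dapl1, also a gene of naive cells, ran the other way at 10.47, 11.19, 10.75, 11.67 and 11.07.

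Genes of activated and memory cells had a median of 9.65. Vim, S100a10 and the costimulatory receptor Icos were at 11.89, 11.74 and 11.71, and Cd44 was at 11.19 ± 0.25. Id2, a regulator of effector cells, read 11.18, 11.91, 11.49, 11.77 and 10.86, while the integrin chain Itgb7 read 11.56, 11.03, 11.68, 11.23 and 11.87. These genes differed between arrays in opposite directions.

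Regulatory T cell genes lay at intermediate levels, with a median of 8.97 against 7.60 over all genes. Of 16 measured, 14 reached 6.70, beside 13052 of all 18193 genes. Foxp3 read 7.72, 8.35, 8.61, 8.37 and 8.51 (8.31 ± 0.35), lowest on array 1. Izumo1r, the folate receptor 4 of these cells, was at 11.42 ± 0.44, Ikzf2 (Helios) at 10.82 ± 0.14, Nrp1 at 9.96 ± 0.48 and the ecto-enzyme Nt5e at 9.76. The checkpoint receptor Ctla4 read 8.89, 8.90, 9.78, 8.89 and 9.26. Il10 was near the floor at 6.57 ± 0.18.

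For the effector subsets, transcription factors reached 6.70 while several cytokines lay near the floor. Tbx21, the T helper 1 factor, was at 8.83 ± 0.23, and the chemokine Ccl5 and receptors Il18r1 and Cxcr3 were at 10.84, 10.67 and 9.74. Ifng, the cytokine of these cells, stayed at 6.38 ± 0.24 and at the floor on 2 arrays. Gata3, the T helper 2 factor, was at 8.92 ± 0.24. Of the 9 genes of that list measured, 4 reached 6.70, against 13052 of all 18193 genes. Il4 and Il13 were at 6.30 and 6.18, and Ccr4 and Ccr8 at the floor on all arrays.

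For T helper 17 cells, all 5 genes measured reached 6.70, beside 13052 of all 18193 genes, and their median was 8.22. Ccr6, their chemokine receptor, read 9.88, 8.56, 9.96, 8.32 and 9.47, and the nuclear receptor Rora 8.80, 8.22, 9.27, 7.75 and 8.71. Both were lower on arrays 2 and 4. Il17a was steady at 7.69 ± 0.09. Follicular helper genes were led by Tox2 (12.57 ± 0.10), the inhibitory receptor Btla (11.96 ± 0.10) and the factor Bcl6 (10.84 ± 0.12). Their cytokine Il21 read 6.14, 7.96, 6.85, 7.85 and 6.39, high on the low 18S arrays, and Pdcd1 was at 6.76 ± 0.27.

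**Figure D3:**
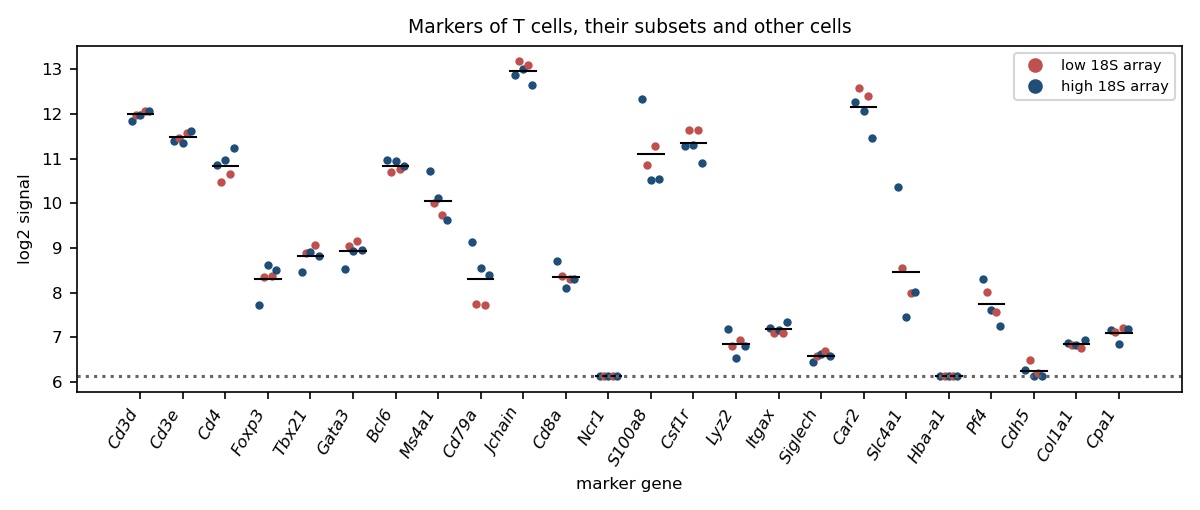
Log2 signal of 24 marker genes on the 5 sham arrays, one point per array (red, low 18S; blue, high 18S), with the mean as a bar and the floor of 6.14 dotted. Cd3d and Cd3e were tight, S100a8 and Slc4a1 had 1 high array, and Ncr1 and Hba-a1 lay at the floor by the probe sets used.

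Transcripts of other cells were detected beside the T cell genes, to unequal degrees. The B cell list had 16 of 18 measured genes at or above 6.70, beside 13052 of all 18193 genes. Its median was 8.45, against 7.60 over all genes. Of the 16, 14 were highest on array 1, as were 14.4% of all genes. Ms4a1 (CD20) read 10.71, 10.01, 10.13, 9.73 and 9.63, and Cd79a, part of the B cell receptor complex, 9.13, 7.74, 8.56, 7.73 and 8.39. The class II chain H2-Aa, carried by antigen-presenting cells, read 12.16, 10.87, 11.72, 10.77 and 11.74. Fcer2a, the low-affinity IgE receptor CD23, read 8.00 on array 1 and lay at the floor on 3 arrays. Array 1 thus had the highest summed B cell signal: its list mean was 9.34, against 8.66 to 8.87 elsewhere. Ighm did not show that order. Its brightest probe set was lowest on array 1, by little (14.20 against 14.22 on array 5). That set lay at or near the highest intensity of each array, where compression was not tested, so no order between arrays is read from it. Its second brightest was lowest on array 5 (12.96 against 13.19 on array 1).

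Genes of antibody secretion followed another pattern. Jchain, which joins IgM and IgA units, was at 12.96 ± 0.21, and Xbp1 and Iglv1 at 11.91 and 11.33. Sdc1 (CD138) was at 7.45. The survival receptor Tnfrsf17 read 6.64, 7.88, 7.30, 7.24 and 6.14. The plasma cell list mean ran from 9.16 on array 5 to 9.47 on array 2, a narrower range than that of the B cell list.

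Some neutrophil genes stood out on array 1. Of the 12 list genes at or above 6.70, 5 were highest on array 1, against 14.4% of all genes. Another 4 were highest on array 4, 2 on array 5 and 1 on array 2, against 20.9%, 34.8% and 17.2%. On array 1 the alarmins S100a8 and S100a9 read 12.33 and 11.74, against 10.53 to 11.29 and 10.27 to 10.52 on the other arrays. The granule protein Ngp read 9.84, 7.91, 7.77, 7.14 and 8.11, and Lcn2, the iron-sequestering lipocalin, 9.06, 6.57, 6.87, 6.85 and 7.69. The list mean was 8.99 on array 1 and 8.05 to 8.34 on the others. Not all members shared the pattern: Cxcr2 and Mpo read 10.04 and 9.41 on array 1 but 10.08 and 9.49 on array 4.

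On array 1, 15 genes lay at least 1 above every other array, that is at least 2-fold: Slc4a1, Lyz1, Ngp, Ptcra, Alox5ap, Lcn2, Chil3, Wfdc21, Fpr2, Slfn4, Wfdc17, S100a9, Mef2c, Mmp8 and S100a8. Arrays 2 and 4 had 1 such gene each, and arrays 3 and 5 had 0. At a gap of 0.5 the order turned, with 144 genes above all others on array 5 and 58 on array 1. Most of the 15 genes listed for array 1 are known from neutrophils and monocytes, whereas Slc4a1 is the red cell anion exchanger and Ptcra the pre-T cell receptor chain of thymocytes. RefSeq promoters were at hand for 12 of the 15 genes. The letters TATAAA, on either strand within 250 bases before to 50 after the start, were in 64.3% of their 14 promoters, against 8.31% for genes kept and 13.6% of all in the table. The motif GGGCGG, a site of Sp1-like factors, was in 21.4%, against 57.6% for genes kept and 35.7% of all in the table. These 15 genes were found by their values and the shares are a description. The stretches show the motif, in capitals, near the start of 3 of them: chr3:90668996-90669095 plus (S100a8), chr3:106167540-106167639 minus (Chil3) and chr11:83175111-83175210 plus (Slfn4).
S100a8: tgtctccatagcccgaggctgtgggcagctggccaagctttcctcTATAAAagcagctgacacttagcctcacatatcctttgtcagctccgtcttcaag
Chil3: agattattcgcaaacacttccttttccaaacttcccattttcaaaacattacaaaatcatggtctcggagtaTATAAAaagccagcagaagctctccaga
Slfn4: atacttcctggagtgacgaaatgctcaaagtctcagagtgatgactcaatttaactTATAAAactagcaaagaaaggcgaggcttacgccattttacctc
Chil3, a chitinase-like protein of myeloid cells, read 9.27, 7.33, 7.34, 7.31 and 7.96, and Slfn4, an interferon-responsive gene of myeloid cells, 9.56, 7.70, 7.74, 7.56 and 8.28.

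Monocyte and macrophage genes gave no common direction. Of 22 measured, 18 reached 6.70, beside 13052 of all 18193 genes, and the median was 7.63, close to that of all genes. Csf1r, the receptor for macrophage colony-stimulating factor, read 11.29, 11.64, 11.31, 11.64 and 10.90. Lyz2, the macrophage lysozyme, was near the lower limit at 6.86 ± 0.23, with C1qa at 6.81 and Cd14 at 8.08. Lyz1 read 9.89 on array 1 and 7.13 to 8.12 on the others. Its probe set carries a suffix for shared or similar sequence, so the signal may not be of Lyz1 alone. The dendritic cell markers Itgax and Siglech were at 7.18 and 6.59, and Xcr1 was at the floor.

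Erythroid genes split by member. Car2, a carbonic anhydrase, was at 12.15 ± 0.43, and Car1 read 10.86, 11.77, 10.54, 11.60 and 10.01. Ermap, a red cell adhesion protein, read 9.95, 10.94, 9.41, 10.68 and 8.92. These and 6 others of the 15 list genes at or above 6.70 did not overlap between the 18S classes, 8 with the low 18S arrays above and 1 with them below, against 21.6% and 23.8% of all genes. Slc4a1 read 10.36, 8.55, 7.45, 7.99 and 8.01, and Hemgn, a nuclear protein of erythroid precursors, 9.97, 9.91, 8.26, 9.37 and 7.40. Hba-a1, a haemoglobin alpha chain gene, lay at the floor on all arrays by its brightest probe set that names it alone. Probe sets naming several genes were left out, and 16 of 24 list genes were measured. The floor value therefore does not show that globin RNA was absent. Alas2, the first enzyme of haem synthesis in red cells, was at 7.05.

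Cytotoxic and CD8 markers were uneven. Cd8a was at 8.36 ± 0.22 and Cd8b1 at 7.16 ± 0.41. Ncr1, the defining receptor of natural killer cells, lay at the floor on all arrays, whereas Klrd1 (CD94) was at 10.64 and Nkg7 at 10.01. The adaptor chains Tyrobp and Fcer1g read 9.39 and 9.16 on array 1 and at most 8.58 and 8.37 elsewhere. The platelet chemokine Pf4 read 8.31, 8.01, 7.62, 7.56 and 7.26. Stromal and endothelial signal was scant: 8 of 18 genes reached 6.70, against 13052 of all 18193 genes. Cdh5 was at 6.25, Col1a1 at 6.85, and Pecam1 at the floor. Pancreatic acinar genes, sought because the pancreas adjoins the spleen, had a median of 7.29, and fat and muscle genes 6.52.

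Spread between the 5 arrays was small for most genes. The median SD was 0.179, the 95th percentile 0.456 and the 99th 0.659; 429 genes (3.29%) had an SD of at least 0.5 and 19 of at least 1. An SD from 5 arrays has a 95% chi-square interval from 0.599 to 2.87 times its value, so neighbours in the order are not distinct. The last of the 100 most variable genes had an SD of 0.6943 and the next 0.6941. Spread was largest at upper-middle levels: the median SD was 0.207, 0.210 and 0.217 in deciles 6, 7 and 8 of genes by level. It was 0.176 and 0.186 in deciles 4 and 5, 0.155 in the lowest and 0.152 in the highest. The 100 brightest and the 100 most variable genes shared 0 members. Leaving out 1 array moved the count of 429 to between 292, without array 5, and 645, without array 3.

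The genes that varied most followed the 18S split. Of the 100 most variable, 61 had both low 18S arrays below the high ones and 26 had both above, against the 23.8% and 21.6% of all genes given earlier. The other 13 overlapped. These genes were chosen by an SD that includes the difference between the classes, so part of the excess over all genes is built in. Trav12n-2, a variable segment of the T cell receptor alpha chain, read 11.43, 8.41, 11.32, 8.77 and 11.22 (SD 1.51). Zbed6, a transcriptional repressor, read 9.68, 7.03, 9.55, 7.78 and 9.78. Prrc2c, an RNA-binding protein, read 11.67, 9.58, 11.79, 9.59 and 11.58. These and Atp8a1, Taok1, Dgkd, Ttll3, N4bp2l2, Tbc1d1, Fbxo32, Prag1, Dvl1, Tbl1x, Sfpq, Ssh1 and Pdpr were low on arrays 2 and 4. Gsdme, the pore-forming gasdermin E, ran the other way at 8.26, 10.32, 8.36, 10.05 and 7.20, as did Tlcd4 and the immunoglobulin segment Igkv5-39. Slc15a2, a peptide transporter, was lowest on array 3 at 7.89 and highest on array 4 at 10.51.

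**Figure D4:**
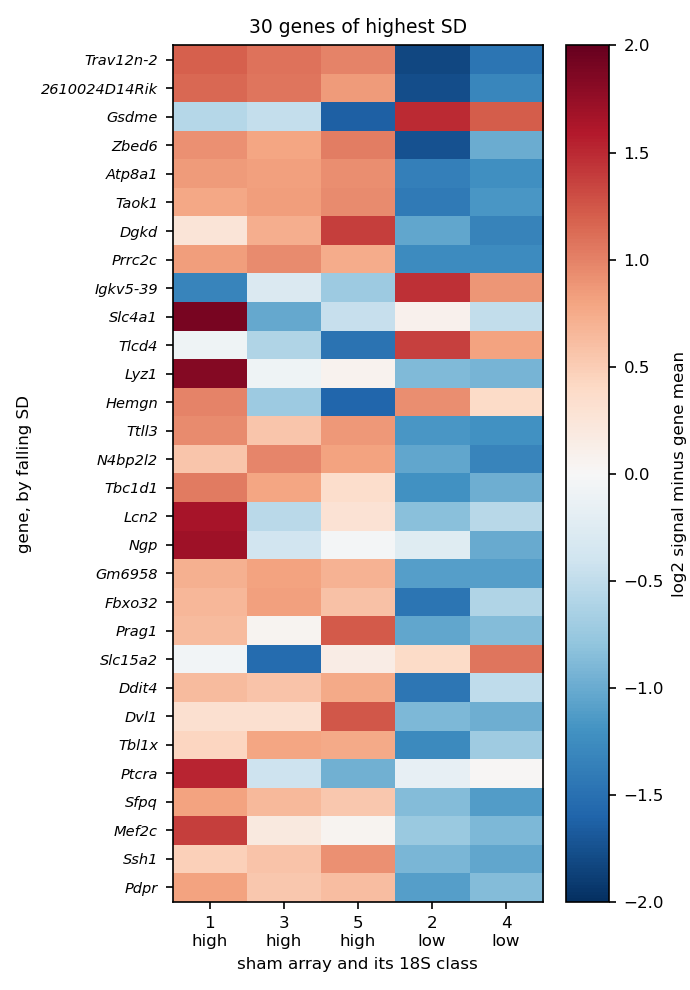
The 30 genes of highest SD, as log2 signal minus the gene's mean over the 5 sham arrays, with the high 18S arrays (1, 3, 5) to the left and the low 18S arrays (2, 4) to the right. Most genes are low on arrays 2 and 4; Gsdme, Igkv5-39 and Tlcd4 are high there, and Slc4a1, Lyz1, Lcn2, Ngp, Ptcra and Mef2c are highest on array 1.

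Probe sets of one gene could differ in this spread. Of the 100 most variable genes 57 had further probe sets at or above 6.70, and in 41 of them the other sets had a median SD under 0.5 of that of the brightest, against 818 of 5358 over all genes with several such sets. In 21 of the 57 another set ran the opposite way between the 18S classes, a smaller share than the 2817 of 5358 over all genes. The median ratio of the other sets' SD to that of the brightest was 0.278, against 1.04 over all such genes, but these members were chosen by the SD of the brightest set. Atp8a1, a phospholipid flippase, had an SD of 1.19 by its brightest probe set, which read 11.06, 8.84, 11.03, 8.99 and 11.15. A second one, at nearly the same mean of 10.14, had an SD of 0.10.

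The same was seen when all probe sets were ranked by SD. Of the 100 most variable probe sets 87 had the low 18S arrays below the others, 10 had them above and 3 overlapped. The shares over all probe sets were not counted, and these members too were chosen by an SD that includes the class difference. Over the genes kept, 23.8% had the low 18S arrays below the others and 21.6% had them above. The highest SD, 1.90, belonged to a probe set of Malat1, a nuclear long non-coding RNA, which read 10.48, 7.04, 10.67, 7.20 and 10.62. The brightest of the 7 Malat1 probe sets at or above 6.70 read 13.11, 11.54, 13.13, 12.18 and 13.01, and another was at 7.65 with an SD of 0.10. Hnrnpu, which binds nuclear RNA, had a probe set at 12.48, 8.39, 12.43, 10.03 and 12.32, a 17.1-fold range, while its brightest one had an SD of 0.17. Probe sets of Rap2b, a small GTPase, and Ddx6, a helicase of messenger RNA decay, with SDs of 1.90 and 1.52, stood beside brightest probe sets of the same genes with SDs of 0.07 and 0.06.

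With the SD pooled within the 18S classes, an alternative added after the data were seen, the median fell to 0.143 and 125 genes remained at 0.5 or more. A total of 23 genes were shared by the 100 most variable lists with and without that pooling. Of the 100 most variable within classes, 65 were highest on array 1 and 77 were lowest on array 5, against 14.4% and 24.6% of all genes. These members were chosen by that pooled spread, in which the 3 high 18S arrays weigh more than the 2 low ones. Extremes on arrays 1, 3 and 5 are therefore partly fixed by the choice. Array 5 had 17 genes at least 1 below every other array. Edaradd, an adaptor of ectodysplasin signalling, read 8.38, 8.68, 8.57, 8.44 and 6.72, and Serf1 10.80, 10.88, 10.56, 10.82 and 9.17. With Ccdc90b these were the widest gaps on that array.

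The glucocorticoid list was mixed, with some of its members among the most variable genes. Of 17 glucocorticoid-response genes at or above 6.70, 7 had the low 18S arrays below the others and 3 above; over all genes these shares were 23.8% and 21.6%, so non-overlap in the list is not far from the 45.4% of all genes. Ddit4, an mTORC1 inhibitor induced by stress and glucocorticoids, read 11.92, 9.84, 11.86, 10.78 and 12.06. Tsc22d3 (GILZ), a mediator of glucocorticoid action in T cells, read 10.22, 8.78, 10.34, 9.24 and 10.52, and Txnip, an inhibitor of thioredoxin, 12.30, 11.47, 12.68, 11.71 and 12.65. The metallothionein Mt2 ran the other way, at 11.07 and 10.85 on arrays 2 and 4 and 9.76 to 10.26 on the high 18S arrays. Mt1 read 11.12 on array 2 and 10.04 to 10.49 on the high 18S arrays, with array 4 not given here. Fkbp5, a chaperone of the glucocorticoid receptor, was at 10.69 on array 5 and 9.68 to 9.89 elsewhere.

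The list of immediate early and dissociation genes was drawn up for responses to activation and cell handling. It held Nfkbia, Jund (12.68 ± 0.10), Btg1 (12.60 ± 0.06) and Egr1 (11.32 ± 0.13). Not every member is induced within minutes, and whether any was induced here was not tested. Ier2 and Btg2 were the most variable, with SDs of 0.49 and 0.54, and both were lower on arrays 2 and 4. Fos read 8.68, 9.14, 8.63, 9.29 and 8.22, in the opposite order, and Atf3 lay at the floor. The mean of the heat shock list was even, from 10.91 to 11.03. Of its 15 genes at or above 6.70, 6 had the low 18S arrays below the others and 4 had them above, against 23.8% and 21.6% of all genes. Their median SD was 0.167, against 0.179 over all genes kept. Hspa8 and Hsp90aa1, the main cytosolic chaperones, were at 12.97 and 12.54.

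Most interferon genes were highest on array 5. In the type I interferon list 20 of 26 genes at or above 6.70 had their highest value there, against 34.8% of all genes. The list mean was 9.11, against 8.54 to 8.76 on the others. The list also followed the 18S split: 14 of the 26 had both low 18S arrays below the others and 1 had both above, against 23.8% and 21.6% of all genes. Its means on arrays 2 and 4 were 8.54 and 8.62. Irf7, the transcription factor that amplifies the response, read 6.70, 6.34, 7.01, 6.33 and 7.67. Ifi35 read 11.05, 10.15, 11.38, 10.23 and 11.67, and Ifit1, which binds foreign RNA, 9.45, 9.91, 9.53, 9.91 and 10.45. Trim30a was the brightest of the list at 11.73 ± 0.46.

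Cell cycle genes showed the reverse. Of 24 genes 16 had both low 18S arrays above the others, against 21.6% of all genes, 17 were highest on array 2 (17.2% of all genes) and 17 were lowest on array 5 (24.6% of all genes). Ccna2 and Cdk1, which drive entry into mitosis, read 9.44, 10.14, 9.18, 9.62 and 8.75, and 8.38, 9.40, 8.44, 8.91 and 8.03. Top2a, the topoisomerase of dividing cells, read 10.21 and 9.75 on arrays 2 and 4 and at most 9.28 on the others. The replication genes Pcna, Mcm7 and Mcm4 were brighter and varied less, with SDs of 0.19, 0.10 and 0.17. Erythroid and cell cycle list means were both above their own average on arrays 2 and 4 and below it on arrays 3 and 5, but on array 1 the erythroid mean was above (9.35 against 9.10) and the cell cycle mean below (9.25 against 9.29); whether they come from the same cells was not tested.

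**Figure D5:**
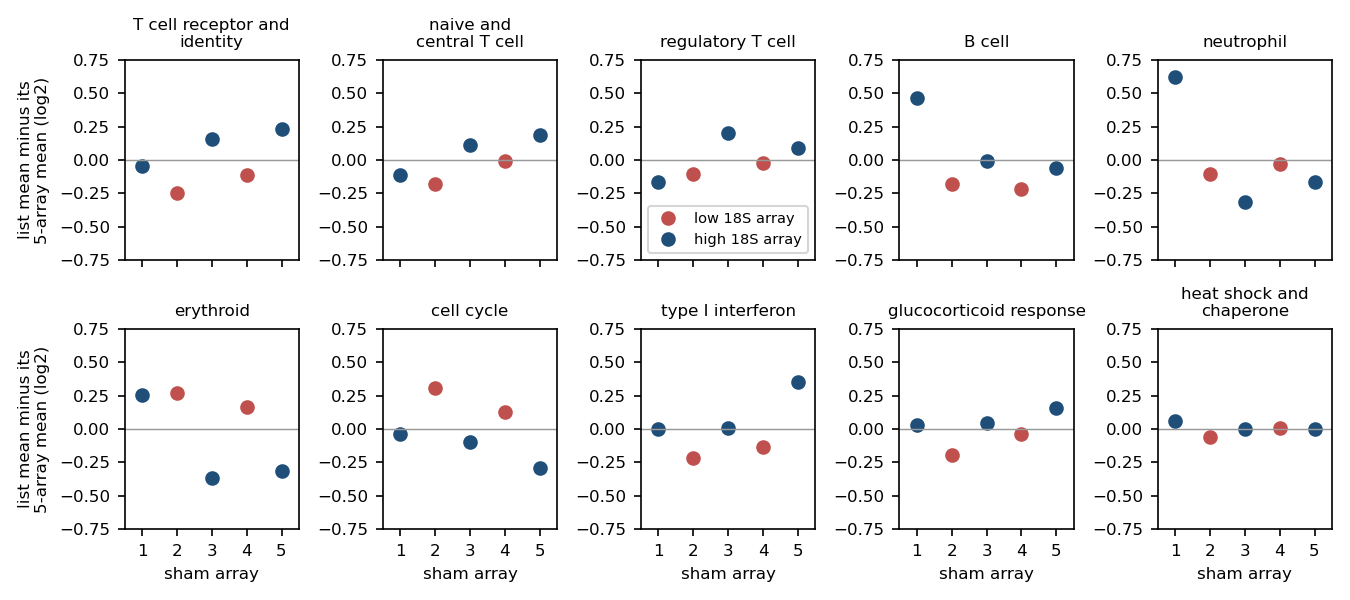
Mean log2 signal of 10 gene lists on each sham array, minus the list's mean over the 5 arrays (red, low 18S; blue, high 18S). The B cell and neutrophil lists are highest on array 1, the type I interferon list on array 5, and the cell cycle list on array 2. The mean of the heat shock and chaperone list stays level.

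The GIMAP genes, GTPases that keep resting lymphocytes alive, were all above the 75th percentile of genes, led by Gimap4 at 12.96 ± 0.09 and Gimap8 at 12.74 ± 0.09. Their list mean ran from 11.01 on array 2 to 11.50 on arrays 3 and 5. Gimap6 read 11.07, 10.15, 11.28, 9.61 and 11.22. Among clock genes Dbp, an output of the clock, was at 9.68 ± 0.30, Nr1d2 at 9.82 ± 0.40 and Per1, also induced by glucocorticoids, at 7.49 ± 0.42. The Y-linked genes Eif2s3y and Kdm5d were at 10.14 ± 0.08 and 9.49 ± 0.13 on arrays of all 5 mice, and Xist, the RNA of the inactive X, was at 8.12 ± 0.18 by its brightest probe set.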

How the data were processed

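The deposited table holds 1 linear intensity per probe set and array, made by the authors; the sources used here give neither the software nor its background correction and scaling. Each array was scaled to the common median of all 10 arrays, values under the 25th percentile (70.4) were set to it, and log2 was taken. A platform annotation gave 34945 probe sets 1 symbol and 932 several, and 9160 are unnamed here; 204 named ones had no Entrez match in RefSeq. Genes named are the 30 brightest, the 30 of highest SD, the 10 steadiest of the 500 brightest, the 4 brightest and 2 most variable of each of 31 lists (463 of 550 genes measured), and defining markers. Others, such as Malat1, Ctla4, Ifng, Cd44, Thy1 and the genes set apart on 1 array, were chosen after their values were seen, as were the 18S classes. The members and lists were chosen with earlier results of these data known. No group comparison was tested. Replicate numbers of the sham arrays are the suffixes of their titles. The script was tested on simulated data. Software was Python 3.11.15, numpy 2.4.6, pandas 2.3.3, scipy 1.17.1 and matplotlib 3.10.9. Precision is limited by there being 5 arrays.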

Additional observations from a re-analysis of the deposited data

Results flagged for a closer look

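In a group of 5 arrays, a value is singled out where its gap to the nearest other array exceeds 0.71 of the whole range (Dixon's critical value), which chance alone gives in about 5% of groups. Of 13052 genes 521 (3.99%) met this, and 16 of the 280 genes checked by name (5.71%) did. Distances below are from the mean of the other 4 arrays on the log2 scale. Array 1 was high for Fcer2a by 1.81, Wfdc21 by 1.59, Alox5ap by 1.54, Wfdc17 by 1.46, Fpr2 by 1.42, S100a9 by 1.35, Fcgr3 by 1.12 and Fcer1g by 0.88. It was low for Rps3a1 (-0.28) and Cct2 (-0.16). Array 5 was high for Fkbp5 by 0.86, Il13 by 0.18 and Rps20 by 0.10, and low for Edaradd (-1.80), Serf1 (-1.60) and Ccdc90b (-1.52). For Il13 and Fcer2a the other arrays lay at or next to the floor, so the gap ratio depends on the floor. Several of these genes were named because they set 1 array apart, so their number is not independent of that choice.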

How the results depend on the processing

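The 100 brightest genes shared 92 or more members with those of 1 other setting each, except when all probe sets of a gene were averaged, which left 43 shared. Averaging also left 41 of the 100 most variable genes shared and 211 genes with an SD of at least 0.5, against 429. Pooling the SD within the 18S classes left 23 shared and 125 such genes, and the 3 high 18S arrays alone left 23 shared and 266; both were added after the data were seen. Leaving out each array in turn gave 97 to 99 shared among the brightest, 71 to 87 among the most variable, 292 to 645 genes with an SD of at least 0.5 and a median SD of 0.157 to 0.188. Without scaling, with quantile normalization, other floors or other filters, the most variable genes shared 87 to 98 and the count was 352 to 477. Ranking by SD over the running median SD at the same level left 74 of the most variable genes shared. Averaging probe sets moved 127 gene levels and 24 of 31 list medians by more than 1 SD between arrays, and using the high 18S arrays alone moved 10 list medians. No paired analysis was possible because a single group is described. Genes near the floor have levels set by the floor and are not ordered; no interval is given for them.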
